A study of Mus musculus with 289 samples.

Results

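The genes described here are 34 transcripts that mark microglia, the resident macrophages of the brain, read in libraries made from single astrocytes of the adult mouse cortex. They were given as a list of symbols, and each matched a single Ensembl identifier with a row in all 5 count tables, 1 table per batch, among 23787 to 55487 gene rows. They comprised 8 genes largely restricted to microglia within the brain, 4 genes for a growth factor receptor, lineage transcription factors and an adhesion ligand, and 6 genes for ITAM-coupled receptors, adaptors and their effectors. A further 7 belong to the lysosome, the phagosome, the oxidase and Toll-like receptor trafficking, and 9 to the leukocyte surface and cytoskeleton.

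All cells came from adult transgenic mice that express Cas9, and each was drawn into an electrophysiology pipette and made into a Smart-seq2 library, a full-length method without molecular identifiers. The groups were cells with guide RNAs (gRNAs) against the transcription factor Sox9, against the transcription factor Trps1, against both (dual gRNA), with a control gRNA, and with no gRNA. The gRNAs came in a lentivirus (Mok-LV) that the design text gives as specific to astrocytes, and the cells were taken 7 or 21 days later in batches 2 to 5, and in batch 1 at days 8 to 16 with control gRNA and 17 to 20 with dual gRNA. The labels give no day for the cells with no gRNA, so day is not matched in any comparison against them. The promoter behind that specificity, the one that drives Cas9, and whether mice of the no gRNA cells received a virus are not stated in the sources used. In-slice controls, labelled as holding no cell, were carried through the same method. Of 289 labelled samples, 242 cells and 12 in-slice controls had a column of counts, and 35 samples of batch 4 were not analysed here. The labels name no animal, so the cells that share a gRNA, a day and a batch form 1 pool. In batch 1 each gRNA pool mixes the days given above, and the labelled day rises almost cell by cell in listed order. No comparison has a replicate check, no test was made, and intervals (95%, exact) cover counting error only.

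Microglia are macrophages of yolk sac origin that survey the brain with motile processes and touch neurons and astrocytes. Their survival depends on the receptor Csf1r, and their gene program on the ETS factor PU.1, encoded by Spi1, often together with Irf8. The purinergic receptor P2ry12 directs their processes to sites of ATP or ADP release, such as an injury. Astrocytes arise from neuroectoderm and are not known for this program.

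Promoters of 4 members that hold a PU-box core are shown because PU.1 is a known regulator of many of these genes. Sequences are from RefSeq (GRCm38.p6), 250 bases before to 50 bases after the annotated start, 5′ to 3′ along the gene, and a window was found for 24 of the 34 genes. Capitals mark the PU-box core GAGGAA on either strand (TTCCTC where it lies on the other strand) and, in Cd68, the ETS-IRF composite (GGAA, any 2 bases, then GAAA) on the other strand, which overlaps a core.
Laptm5 (chr4:130913066-130913365, plus strand): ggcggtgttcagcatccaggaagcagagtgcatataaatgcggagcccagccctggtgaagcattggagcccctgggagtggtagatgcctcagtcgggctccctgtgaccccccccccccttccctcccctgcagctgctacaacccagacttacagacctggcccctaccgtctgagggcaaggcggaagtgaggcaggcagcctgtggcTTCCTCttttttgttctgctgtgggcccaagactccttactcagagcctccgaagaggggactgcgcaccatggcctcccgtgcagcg
Trem2 (chr17:48346151-48346450, plus strand): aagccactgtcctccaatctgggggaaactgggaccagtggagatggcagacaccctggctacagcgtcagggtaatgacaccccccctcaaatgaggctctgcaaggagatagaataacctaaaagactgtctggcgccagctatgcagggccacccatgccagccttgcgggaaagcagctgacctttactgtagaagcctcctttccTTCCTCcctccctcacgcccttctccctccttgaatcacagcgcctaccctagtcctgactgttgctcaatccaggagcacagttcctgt
Itgam (chr7:128062390-128062689, plus strand): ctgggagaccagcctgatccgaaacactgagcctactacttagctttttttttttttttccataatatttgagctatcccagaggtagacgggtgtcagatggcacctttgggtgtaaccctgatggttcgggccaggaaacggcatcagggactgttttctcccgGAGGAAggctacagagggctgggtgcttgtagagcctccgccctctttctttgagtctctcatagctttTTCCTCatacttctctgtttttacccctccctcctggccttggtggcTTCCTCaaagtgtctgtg
Cd68 (chr11:69666121-69666420, minus strand): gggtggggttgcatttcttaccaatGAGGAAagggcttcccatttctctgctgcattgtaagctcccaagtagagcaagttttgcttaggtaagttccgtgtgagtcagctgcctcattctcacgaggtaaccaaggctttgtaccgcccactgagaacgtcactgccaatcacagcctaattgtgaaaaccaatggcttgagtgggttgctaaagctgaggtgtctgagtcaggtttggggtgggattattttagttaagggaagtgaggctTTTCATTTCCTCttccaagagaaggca
The core stood in the windows of 12 of 24 members (50%), against 31.3% of 27025 genes with a window. The composite stood in 2 of 24 (Cd68 and Cybb), against 3.16% of all genes. These matches describe letters in a window and are not binding sites.

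Cells held 15959 to 4656612 reads in genes (median 1094502), and in-slice controls 341394 to 2299609. In 2 pairs the libraries of a pool were nearly the same. Cells 13 and 14 of the Trps1 gRNA pool of day 7 in batch 4 had a Pearson's r of 0.993 over all genes (log2 of CPM plus 1), and cells 10 and 14 of the no gRNA pool of batch 5 an r of 0.989, where the highest r of the 7165 other pairs within a batch was 0.649. Their counts differed by more than sampling noise (chi-square per degree of freedom 3.0 and 1.67), but far less than those of the other pairs of their pools (99.5 and 26.1 or more). The labels list them as separate cells, and whether a cell was read in both libraries of a pair was not tested. They were kept and count as 2 cells in the counts of cells, and values with 1 of each pair left out stand beside the pooled sums they touch. Values below are counts per 1000000 reads in genes (CPM), pooled over the cells of a group or taken per cell. The astrocyte label was checked with 22 astrocyte genes, which include the water channel Aqp4 and the glutamate transporters Slc1a2 and Slc1a3. Their summed level had a median of 12201 CPM in the 182 gRNA cells (23.2 to 88946), 27885 CPM in the 60 no gRNA cells (2329 to 92945) and 1490 CPM in the in-slice controls (115 to 5549). The 34 microglial genes together exceeded the 22 astrocyte genes in 56 gRNA cells, in 0 no gRNA cells and in 8 in-slice controls. In those 56 cells the labelled type's own genes were the smaller of the 2 sums.

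Microglial transcripts were abundant in every gRNA pool, control gRNA included, and scarce in every no gRNA pool. The pooled sum of the 34 genes lay between 4849 and 11462 CPM in the 13 gRNA pools and between 264 and 523 CPM in the 3 no gRNA pools, and these ranges did not overlap. Above a level of 1000 CPM, chosen after the values were seen, stood 137 of 182 gRNA cells (75.3%), 7 of 60 no gRNA cells (11.7%) and 9 of 12 in-slice controls (75%). Each gRNA cell had a read of at least 1 of the genes, and 4 no gRNA cells had none.

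**Figure D1:**
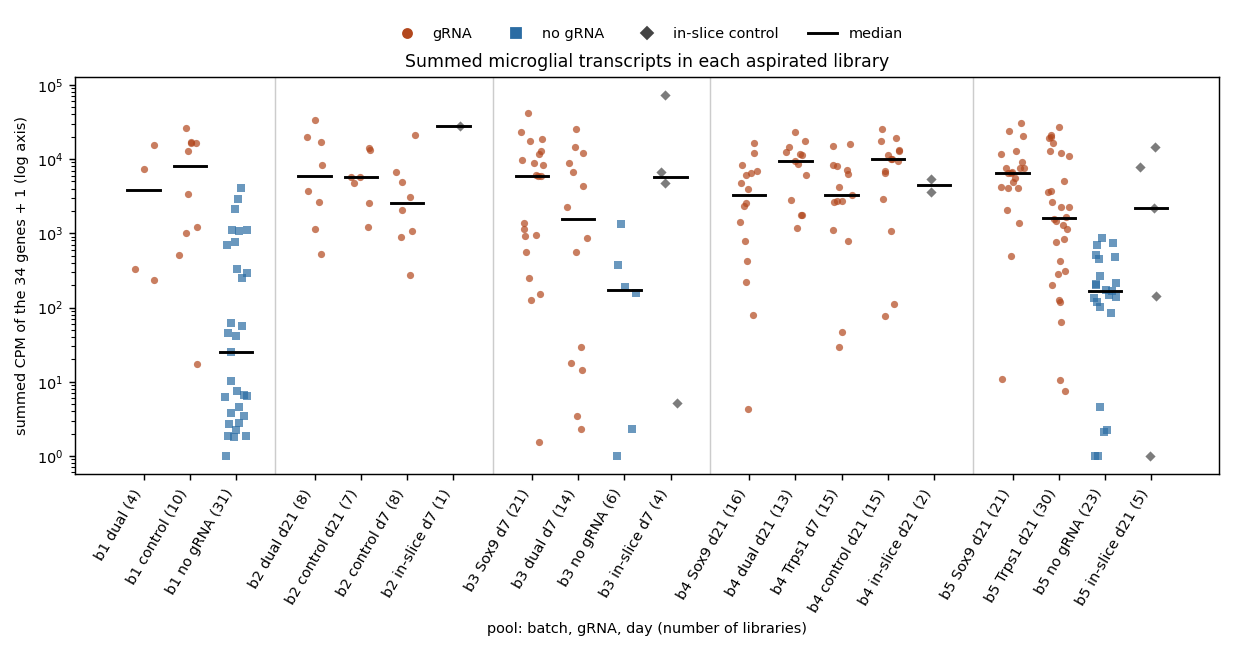
Summed CPM of the 34 microglial genes plus 1 (log axis) in each library, by batch (b1 to b5), gRNA and day (d7, d21). Each point is a library, bars are medians, circles hold a gRNA, squares no gRNA, and diamonds are in-slice controls. Medians of the gRNA pools ran from 1576 to 10084 CPM and those of the no gRNA pools from 24.5 to 172 CPM. Single in-slice control libraries ran from 0 to 71964 CPM.

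The in-slice controls gave the level obtained with no aspirated cell, and it was high in most of them. In batch 2 the only such library held 27824 CPM, with reads of 19 genes. Its label gives day 7, but its title has the prefix 24 that the control gRNA cells of day 21 carry. The 4 libraries of batch 3 held 4820, 6733, 71964 and 4.20 CPM, the 2 of batch 4 held 5401 and 3639 CPM, and the 5 of batch 5 held 14759, 2200, 7714, 0 and 143 CPM. Single in-slice libraries thus ran from 0 to 71964 CPM. Single gRNA cells also spread widely, as with Sox9 gRNA in batch 3, from 0.556 to 42013 CPM. The highest, library 3 of batch 3, carried 17606 CPM of Cd83, an activation marker of the immunoglobulin superfamily, 6744 CPM of Csf1r, 5764 CPM of Laptm5, a lysosomal membrane protein of leukocytes, and 2498 CPM of P2ry12. Without it the batch 3 controls pooled to 3240 CPM, in place of 27872 CPM with it.

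The in-slice controls carried different sets of the genes. Tyrobp, the ITAM adaptor of the receptor Trem2, had reads in 11 of 12 libraries and reached 2526 CPM in library 1 of batch 4. Laptm5 was also read in 11 of 12, and Cd83 and Aif1, a cytoskeletal protein known as Iba1, in 10 of 12 each. P2ry13, a purinergic receptor, was read in 1 library of batch 5, at 940.2 CPM. Sall1, a zinc finger factor of microglial identity, and Cybb, a subunit of the phagocyte oxidase, were read in 0 of 12.

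**Figure D2:**
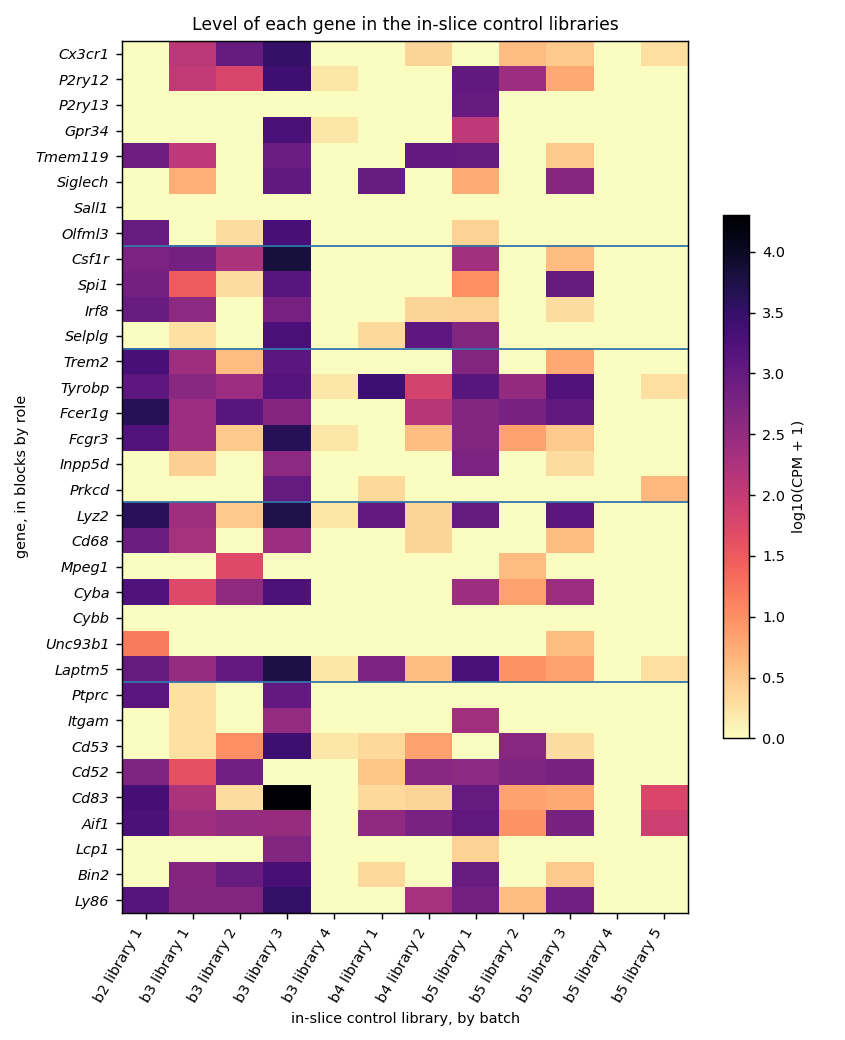
Level of each of the 34 genes, as log10 of CPM plus 1, in the 12 in-slice control libraries of batches 2 to 5, with genes in blocks by role. Library 3 of batch 3 is dark across most genes, library 4 of batch 3 (4.20 CPM in all) and library 4 of batch 5 (0 CPM) are pale, and Sall1 and Cybb are at 0 throughout.

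In batches 2, 3 and 5 most gRNA cells lay below the highest in-slice control of their batch, and in batch 4 many lay above it. The highest in-slice library of batch 5 was passed by 3 of 21 Sox9 gRNA cells, 5 of 30 Trps1 gRNA cells and 0 of 23 no gRNA cells. That of batch 4 was passed by 6 of 16 Sox9, 9 of 13 dual, 6 of 15 Trps1 and 11 of 15 control gRNA cells, with 5401 CPM as the level to pass. In batch 3 it was passed by 0 cells, and in batch 2, with its only library, by 1 of 8 dual gRNA cells. The in-slice median of batch 5, 2200 CPM, was passed by 17 of 21 Sox9, 14 of 30 Trps1 and 0 of 23 no gRNA cells. That of batch 3, 5776 CPM, was passed by 12 of 21 Sox9, 5 of 14 dual and 0 of 6 no gRNA cells. In batch 4 the median, 4520 CPM, was passed by 7 of 16 Sox9, 9 of 13 dual, 6 of 15 Trps1 and 11 of 15 control gRNA cells. The in-slice libraries of batch 4 are labelled day 21 and carry the prefix of the control gRNA cells, 21C. The Trps1 gRNA cells of that batch are of day 7, so their day is not matched. No in-slice control carries the title prefix of the no gRNA cells (AG or 2AG). The counts of no gRNA cells therefore rest on in-slice libraries titled with the gRNA cells. What part such material has in the level of the cells was not tested.

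Batch 5 allowed Sox9 gRNA cells of day 21 to be set against cells with no gRNA, and all 34 genes were higher in the Sox9 gRNA pool. The summed level was 8662 CPM in the Sox9 gRNA pool (8618 to 8707), against 264 CPM in the no gRNA pool (257 to 272), a log2 ratio of 5.01 with 5 CPM added to each. Per cell the sum ran from 9.84 to 30595 CPM with Sox9 gRNA (median 6505) and from 0 to 873 CPM with no gRNA (median 165), and 19 of the 21 Sox9 gRNA cells stood above the highest no gRNA cell. Of the 33 genes at 20 CPM or more in the higher pool, 33 were higher by 2-fold or more and 0 lower, where 24.9% of all 8140 genes at that level were higher and 18.3% lower. Their median log2 ratio was 4.24, and that of all genes at that level 0.14. A gene can pass this minimum through its higher pool alone. The direction of all 34 is a count without that choice, but no share of all genes by direction stands beside it. With 1 library of the near-identical pair left out, the no gRNA pool stood at 271 CPM (22 cells), the log2 ratio was 4.97, and 33 genes were again higher by 2-fold or more. Summed astrocyte genes stood at 27015 CPM with Sox9 gRNA, against 34558 CPM with no gRNA, with 0 of 22 higher and 3 lower by 2-fold or more. Genes of oligodendrocytes and their progenitors were higher as well, with 7 of 10 higher and 0 lower (median log2 ratio 2.55) and summed levels of 4869 CPM with Sox9 gRNA and 2542 CPM with no gRNA. Of 11 neuronal genes 0 were higher and 3 lower, at 3570.0 against 4255 CPM. The part of these lists in the difference was not tested.

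Among the genes restricted to microglia, Cx3cr1, the fractalkine receptor, stood at 685 CPM with Sox9 gRNA (673 to 698), against 4.37 CPM with no gRNA (3.45 to 5.46). Per cell it ran from 0 to 3181 CPM with Sox9 gRNA, with a median of 384 CPM and reads in 15 of 21 cells, and from 0 to 168 CPM with no gRNA, with reads in 5 of 23 cells. Most Sox9 gRNA cells were above the no gRNA cells, but 6 had no read, so the groups overlapped. Olfml3, a secreted protein, stood at 339 CPM with Sox9 gRNA, against 0.114 CPM with no gRNA, a count of 2 reads in that pool. P2ry12 was at 295 against 21.6 CPM and Tmem119, a membrane protein used as a microglial marker, at 339 against 18.1 CPM (log2 ratios 3.50 and 3.90). The 8 genes of this group summed to 2039 CPM in the Sox9 gRNA pool, against 81.8 CPM in the no gRNA pool.

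The growth factor receptor and the lineage factors showed the same difference in batch 5. Csf1r stood at 570.4 CPM with Sox9 gRNA (reads in 13 of 21 cells, highest 3106 CPM) and 25.5 CPM with no gRNA (3 of 23 cells, highest 479 CPM). Spi1 stood at 123 CPM with Sox9 gRNA (9 of 21 cells), against 0.0568 CPM with no gRNA, where a single read was found. Csf1r overlaps Hmgxb3 on the other strand, and the sources used do not say how strand was counted. P2ry12 and P2ry13 likewise overlap Med12l, and Gpr34 overlaps Cask. Cx3cr1 overlaps Gorasp1, Csrnp1 and Xirp1 on its own strand and further genes on the other. Irf8, Cyba, Cd52 and several other members also overlap annotated genes.

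Per kilobase of exon, Tyrobp was the most abundant member in the Sox9 gRNA pool. It stood at 555 CPM with Sox9 gRNA (16 of 21 cells, median 426 CPM per cell) and 29.1 CPM with no gRNA (7 of 23 cells, median 0). Per kilobase this was a level of 832 CPM with Sox9 gRNA, followed by Lyz2 at 492 CPM. Fcgr3, a low-affinity IgG receptor with close relatives that short reads can confuse, stood at 255 CPM with Sox9 gRNA (10 of 21 cells), against 0.114 CPM with no gRNA (2 of 23 cells, 2 reads).

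Of the lysosomal and phagosomal genes, Lyz2, lysozyme of macrophages, stood at 647 CPM with Sox9 gRNA (635 to 660), against 0.341 CPM with no gRNA (0.125 to 0.741). Its reads may be shared with the near-identical Lyz1. Laptm5 stood at 756 against 10.4 CPM, with reads in 19 of 21 and 3 of 23 cells, and Unc93b1, a chaperone of endosomal Toll-like receptors, at 361 against 0.0568 CPM. Among the leukocyte genes, Cd83 stood at 499 against 4.83 CPM and Ly86, the partner of the receptor Cd180, at 320.1 against 4.54 CPM. Ptprc, the pan-leukocyte phosphatase CD45, was much lower: 38.3 CPM with Sox9 gRNA (6 of 21 cells), and 0 of 23 cells with no gRNA. With every cell thinned to 100000 reads, Laptm5 was still read in 16 of 21 Sox9 gRNA and 1 of 23 no gRNA cells, and Lyz2 in 13 of 21 and 2 of 23.

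Trps1 gRNA cells of day 21 in batch 5 had the same 23 no gRNA cells as their reference, whose values serve both comparisons. The summed level was 6405 CPM with Trps1 gRNA (6375 to 6436) and 264 CPM with no gRNA, a log2 ratio of 4.57, and all 34 genes were higher. That count also has no share of all genes by direction beside it. Of the 32 genes at 20 CPM or more, 32 were higher by 2-fold or more and 0 lower, against 31.4% and 12.5% of 8500 genes, and their median log2 ratio was 3.91 against 0.47 for all genes. Per cell the sum ran from 6.43 to 27097 CPM (median 1592), and 19 of 30 Trps1 gRNA cells stood above the highest no gRNA cell. The others overlapped the no gRNA cells. With 1 library of the near-identical pair left out the log2 ratio was 4.54, with 31 of 32 genes higher. Summed astrocyte genes stood at 33180 CPM with Trps1 gRNA, against 34558 CPM with no gRNA. Of 12 neuronal genes 5 were higher and 0 lower (6423 against 4255 CPM), of 6 oligodendrocyte genes 2 were higher and 2 lower (2755 against 2542 CPM), and of 5 genes of endothelium, pericytes and fibroblasts 4 were higher and 1 lower (202 against 36.8 CPM). Their part in the difference was not tested.

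Single genes were read in some of the Trps1 gRNA cells and not in others. Lyz2 stood at 564 CPM in the pool with Trps1 gRNA, with a per-cell median of 0, a highest cell of 6099.9 CPM and reads in 14 of 30 cells, against 0.341 CPM with no gRNA. Fcgr3 stood at 446 CPM (14 of 30 cells) against 0.114 CPM, Cx3cr1 at 394 CPM (15 of 30 cells) against 4.37 CPM, and Csf1r at 514 CPM (12 of 30 cells) against 25.5 CPM. Lcp1, an actin-bundling protein of leukocytes, stood at 139 CPM with Trps1 gRNA (8 of 30 cells) and was read in 0 of 23 cells with no gRNA. It was 817-fold higher when the no gRNA pool is set at 3 reads. That ratio covers counting error only, not the spread between cells. Tmem119 was lower than in the Sox9 gRNA pool, at 88.7 against 18.1 CPM with no gRNA, and a log2 ratio of 2.02.

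The title prefixes of the Trps1 gRNA cells mark 3 sets whose sums differed. Cells of 21T3 pooled to 10752 CPM (11 cells), those of 21T to 4793 CPM (9 cells) and those of 21T2 to 2051 CPM (10 cells). In-slice controls with the same prefixes held 2200 CPM in 21T3 and 0 and 143 CPM in 21T2, and those with the prefix of the Sox9 gRNA cells held 14759 and 7714 CPM. Both sets of no gRNA cells were low, with 286 CPM in 2AG and 238 CPM in AG. The log2 ratio of the Trps1 gRNA sum was 5.32 with 21T3 alone and 2.93 with 21T2 alone. What the prefixes stand for is not given in the labels, so whether in-slice level and cell level share an animal or a slice cannot be told.

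**Figure D3:**
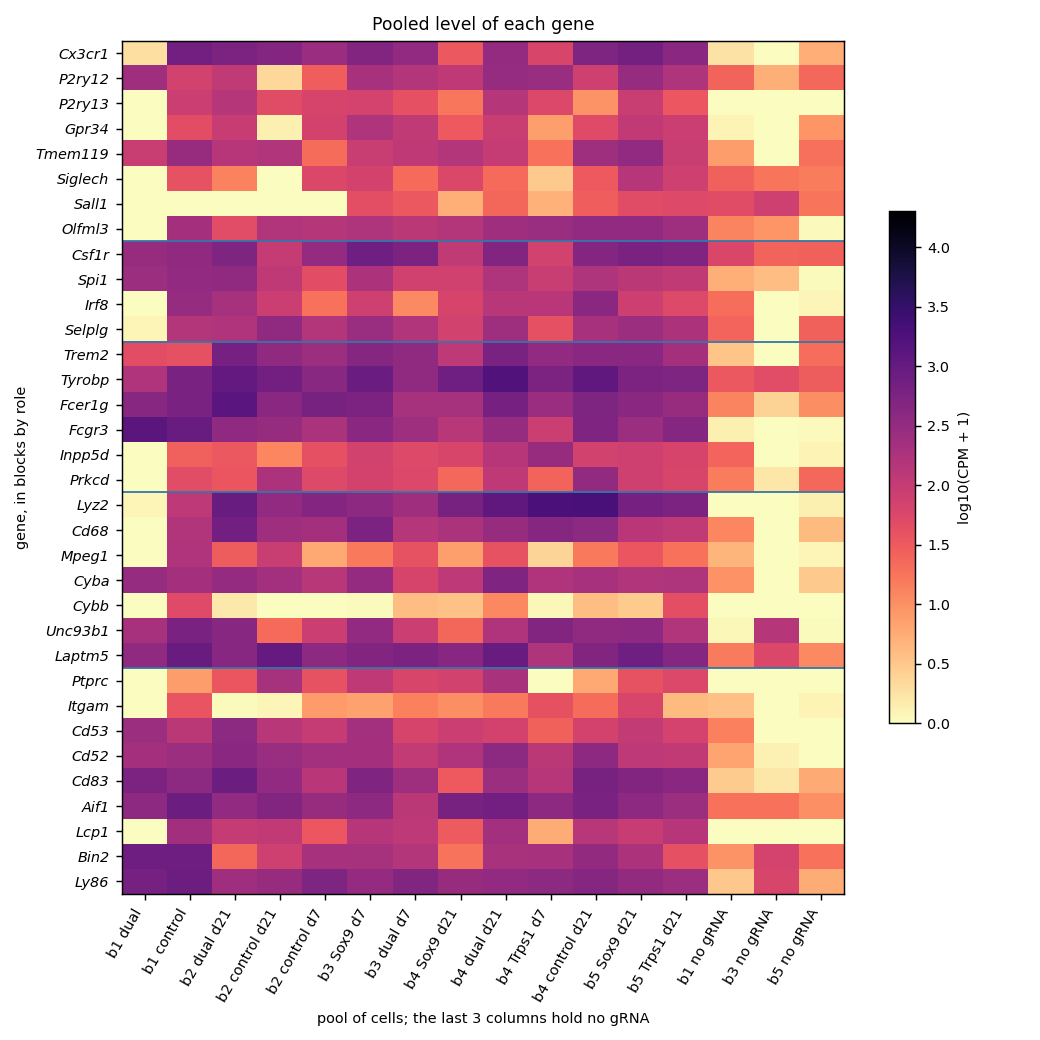
Pooled level of each of the 34 genes, as log10 of CPM plus 1, in the 13 gRNA pools and, at the right, the 3 no gRNA pools, with genes in blocks by role. Most genes are dark in the gRNA pools and pale with no gRNA. Cybb is pale in most pools, Sall1 is at 0 CPM in several gRNA pools and present in all 3 no gRNA pools, and the dual gRNA pool of batch 1 holds 0 CPM of several genes.

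In batch 3 gRNA cells of day 7 were set against cells with no gRNA. The summed level was 9128 CPM in Sox9 gRNA cells, 5468 CPM in dual gRNA cells and 523 CPM in no gRNA cells, log2 ratios of 4.11 and 3.37. Only 6 no gRNA cells were available, with sums of 1.3, 1315, 187, 0, 157.5 and 376 CPM, and 3 of them held under 100000 reads. Cell 2 held 95.2% of the reads of the 34 genes in that pool, and without the highest cell of each pool the log2 ratios were 7.30 and 6.39. In Sox9 gRNA cells 30 genes of 31 at the minimum were higher by 2-fold or more and 0 lower, against 61.8% and 15.2% of all 8131 genes. In dual gRNA cells these were 28 and 1 of 31, against 61.6% and 17.9% of 7813 genes. The median of all genes was itself 1.69 and 1.75 on the log2 scale, below the 4.52 and 3.77 of these genes. Genes of other cell types were also higher. With Sox9 gRNA 8 of 8 oligodendrocyte genes were higher (6918 against 604 CPM, median log2 ratio 3.38), as were 9 of 11 neuronal genes, with 1 lower (5144 against 2328 CPM). With dual gRNA 8 of 11 neuronal genes were higher and 1 lower (5430 against 2328 CPM), and 3 of 6 oligodendrocyte genes were higher and 2 lower (1262 against 604 CPM). Summed astrocyte genes stood at 26416 CPM with Sox9 gRNA, 16616 CPM with dual gRNA and 29136 CPM with no gRNA. The part of these lists in the differences was not tested.

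Several of the genes had no read in the 6 no gRNA cells of batch 3. Cd68, a lysosomal glycoprotein of macrophages, stood at 549.5 CPM in Sox9 gRNA cells and 146 CPM in dual gRNA cells. These were 604-fold and 160-fold higher with the no gRNA pool set at 3 reads. Such ratios cover counting error only, not the spread between cells. Trem2 stood at 442 CPM with Sox9 gRNA (17 of 21 cells) and 349 CPM with dual gRNA (11 of 14 cells), and Cx3cr1 at 505 CPM (16 of 21) and 339.9 CPM (13 of 14), both with 0 of 6 no gRNA cells. Tyrobp stood at 859.7 CPM with Sox9 gRNA, 348 CPM with dual gRNA and 45.5 CPM with no gRNA. Sall1 ran the other way, at 43.0 CPM in Sox9 gRNA cells and 32.5 CPM in dual gRNA cells, against 76.1 CPM with no gRNA. The difference passed 2-fold with dual gRNA only. Just 3 of the 6 no gRNA cells held a read of any of the 8 genes restricted to microglia. The dual gRNA cells split by title, with 8446 CPM in 7ST and 2845 CPM in 7ST2 (7 cells each), while the in-slice controls held 4820 and 6733 CPM in 7ST and 71964 CPM in 7ST2. Sox9 gRNA cells of 7S pooled to 8586 CPM (13 cells) and those of 7S2 to 10018 CPM (8 cells). The in-slice control of 7S held 4.20 CPM, and no in-slice control carries the prefix 7S2.

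In batch 1 cells with a control gRNA differed from cells with no gRNA in the same direction. The summed level was 10327 CPM in 10 control gRNA cells and 395 CPM in 31 no gRNA cells, a log2 ratio of 4.69. Per cell it ran from 16.4 to 26134 CPM with control gRNA (median 8098) and from 0 to 4105 CPM with no gRNA (median 24.5), and 5 of 10 control gRNA cells stood above the highest no gRNA cell. Of 33 genes at the minimum, 30 were higher by 2-fold or more and 1 lower, against 40.2% and 27.1% of 8166 genes, with a median log2 ratio of 3.99 against 0.44. Fcgr3 stood at 889 CPM with control gRNA (9 of 10 cells), against 0.345 CPM with no gRNA, and Ly86 at 824 CPM (8 of 10 cells) against 2.1 CPM. The 1 lower gene was Sall1, at 0 of 10 control gRNA cells and 47.9 CPM with no gRNA (5 of 31 cells). Summed astrocyte genes stood at 14473 CPM with control gRNA, against 30532 CPM with no gRNA, with 14 of 22 lower by 2-fold or more, and neuronal genes at 3663 against 1820.4 CPM, with 6 of 12 higher and 2 lower. Their part in the difference was not tested. No in-slice control of batch 1 was analysed here.

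**Figure D4:**
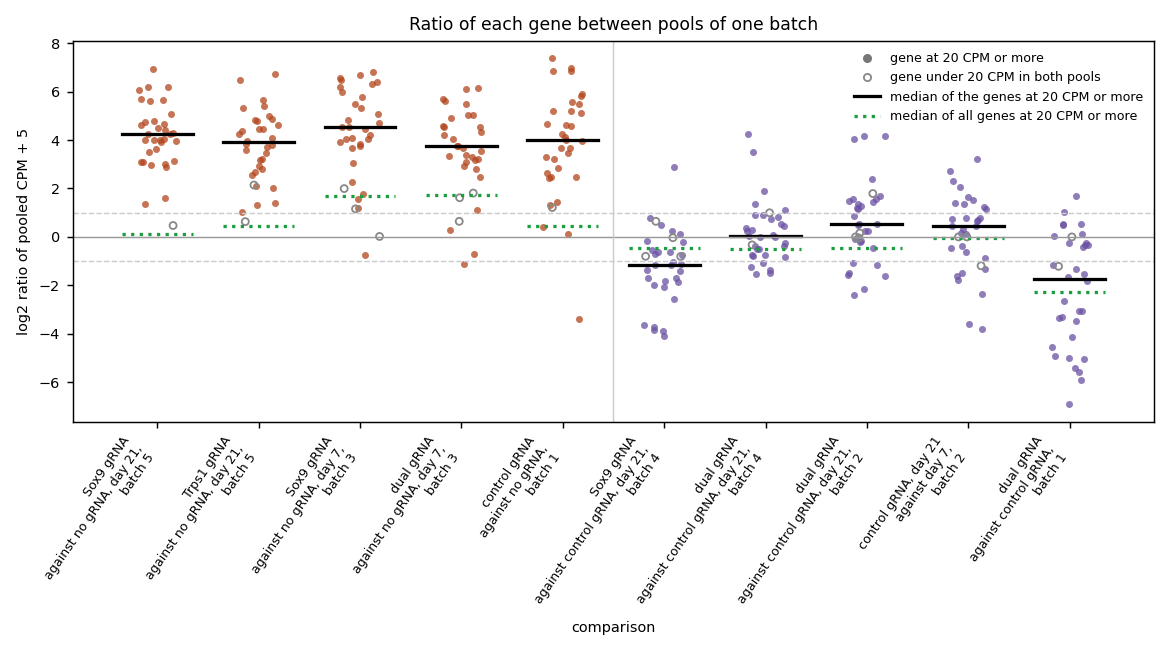
Log2 ratio of pooled CPM plus 5 for each of the 34 genes in the 10 comparisons, those against no gRNA at the left and the others at the right. Filled points are genes at 20 CPM or more in the higher pool, open points genes under it, black bars the median of the filled points and dotted green bars the median of all genes at that level. The medians against no gRNA lie between 3.77 and 4.52 and the others between -1.72 and 0.54.

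Comparisons with control gRNA cells gave smaller differences without a common direction. In batch 4 at day 21 the summed level was 4849 CPM in Sox9 gRNA cells and 11462 CPM in control gRNA cells, a log2 ratio of -1.24. Per cell it ran from 3.30 to 16654 CPM with Sox9 gRNA (median 3252) and from 76.6 to 25322 CPM with control gRNA (median 10084), and the groups overlapped over most of their range. Of 30 genes at the minimum, 18 were lower by 2-fold or more and 1 higher, against 39.7% and 26.1% of 7015 genes, with a median log2 ratio of -1.16 against -0.46 for all genes. Over all 34 genes, 6 were higher with Sox9 gRNA, with no share of all genes by direction beside it. Scaled by the median of ratios between pools, the log2 ratio of the sum was -0.81. Genes of other brain cells were also lower. Of 9 oligodendrocyte genes 9 were lower with Sox9 gRNA (398 against 3551 CPM, median log2 ratio -3.03), and of 11 neuronal genes 6 were lower and 0 higher (1257 against 2633 CPM), while astrocyte genes summed to 16592 against 14394 CPM. The part of these lists in the difference was not tested.

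The lower genes of this comparison were led by Cd83, at 31.2 CPM in Sox9 gRNA cells (6 of 16) and 614 CPM in control gRNA cells (12 of 15). Cx3cr1 stood at 32.2 against 534 CPM, with reads in 4 of 16 and 11 of 15 cells, and Irf8 at 62.8 against 394 CPM. Other genes differed by less: Tyrobp stood at 768 against 1131 CPM (log2 ratio -0.55) and P2ry12 at 112 against 77.6 CPM (0.50). The 1 higher gene was Ptprc, at 69.5 CPM with Sox9 gRNA (5 of 16 cells) against 5.003 CPM with control gRNA (5 of 15 cells). Genes of other blood cells moved with it. The 16 genes of other leukocytes, of which 14 have a row, summed to 241 CPM with Sox9 gRNA and 14.2 CPM with control gRNA, and the 5 erythroid genes to 9715 against 42.1 CPM. Their part in the Ptprc level was not tested.

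In the dual gRNA cells of batch 4 the sum was close to that of control gRNA cells, at 10987 CPM (10937 to 11037) against 11462 CPM (11413 to 11511). The log2 ratio was -0.06, and 0.42 with median-of-ratios scaling, so its direction depends on scaling. Of 32 genes, 5 were higher by 2-fold or more and 5 lower, against 19.9% and 38.8% of 6733 genes, and the median log2 ratio was 0.03 against -0.49. With that scaling the split was 10 higher and 2 lower. P2ry12 was higher, at 304 CPM with dual gRNA (10 of 13 cells) against 77.6 CPM with control gRNA (6 of 15 cells). Tmem119 was lower, at 95.2 against 251 CPM, as were Irf8, at 135 against 394 CPM, and Prkcd, a protein kinase C, at 114 against 326 CPM. Ptprc was again higher, at 185 against 5.003 CPM, beside genes of other leukocytes at 75.2 against 14.2 CPM and erythroid genes at 361 against 42.1 CPM. The astrocyte genes were also lower there, at a summed 3143 CPM with dual gRNA and 14394 CPM with control gRNA, and so were 8 of 9 oligodendrocyte genes, at 1136 against 3551 CPM. The part of these lists in the levels of the 34 genes was not tested.

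Trps1 gRNA cells of day 7 in batch 4 have no group of the same day in that batch. They were compared with no other pool of cells, and were set only beside the in-slice controls of day 21. Their 15 cells summed to 6990.4 CPM, from 27.98 to 15776 CPM per cell (median 3273). The near-identical cells 13 and 14 held 56.8% of the reads of these genes, and with 1 of them left out the pool of 14 cells stood at 5812 CPM. Lyz2 was their most abundant member, at 1874 CPM, and Ptprc was read in 0 of 15 cells.

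Batch 2 held the deepest cells and set dual gRNA against control gRNA at day 21. The sums per cell were 33904, 1149, 526.2, 19661, 8237, 2615, 16960.1 and 3683 CPM in the 8 dual gRNA cells. In the 7 control gRNA cells of day 21 they were 1230, 4815, 5696, 13966, 2564, 13069 and 5683 CPM. The dual gRNA cells held both the highest and the lowest values, and the groups overlapped. The pools stood at 10823 and 7154 CPM, a log2 ratio of 0.60. Of 30 genes, 13 were higher by 2-fold or more and 7 lower, against 31.6% and 42.6% of 6792 genes, with a median log2 ratio of 0.54 against -0.46 for all. P2ry12 was at 108 CPM with dual gRNA (4 of 8 cells) and 1.21 CPM with control gRNA (1 of 7 cells), and Unc93b1 at 423 CPM (5 of 8) and 21.0 CPM (2 of 7). Ptprc went the other way, at 34.9 CPM (2 of 8 cells) against 206 CPM (4 of 7 cells), and so did Prkcd, at 35.4 against 176 CPM. Genes of other leukocytes were 0 CPM with dual gRNA and 218 CPM with control gRNA over the 6 of 16 that have a row. Their part in the Ptprc level was not tested.

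Within control gRNA cells of batch 2, day 21 was set against day 7. The sums were 7154 CPM at day 21 and 5504 CPM at day 7, a log2 ratio of 0.38. The 8 cells of day 7 held 4867, 6703, 275, 1066, 21186, 2065, 888 and 3096 CPM, and cell 5 held 59.0% of the reads of these genes. Without the highest cell of each pool the log2 ratio was 1.08. Of 31 genes, 10 were higher by 2-fold or more and 7 lower, against 32.1% and 37.5% of 7477 genes, with medians of 0.47 and -0.06. The share of higher genes, 32.3%, was near the background. Ptprc was higher at day 21, at 206 CPM (4 of 7 cells) against 37.6 CPM (1 of 8 cells) at day 7, as was Cd83, at 338 CPM (6 of 7) against 129.7 CPM (2 of 8).

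In batch 1 the 4 dual gRNA cells held 7235, 233, 331 and 15352 CPM, and the 10 control gRNA cells 16.4 to 26134 CPM (median 8098). The dual gRNA cells lay within the range of the control gRNA cells. The pools stood at 6459 and 10327 CPM, a log2 ratio of -0.68, which was -1.84 without cell 4 and -0.090 without cell 3. Of 32 genes, 20 were lower by 2-fold or more and 2 higher, against 55.5% and 28.9% of 7376 genes. The median log2 ratio was -1.72, above the -2.28 of all genes. Irf8, Lcp1, Olfml3, Mpeg1, a pore-forming protein of phagosomes, and Cd68 were read in 0 of 4 dual gRNA cells, against 297, 232, 209.7, 159.7 and 157 CPM with control gRNA. The higher genes were P2ry12, at 237 CPM from 1 of 4 cells against 69.5 CPM from 4 of 10, and Cd53, a tetraspanin, at 253 CPM from 2 of 4 cells against 122 CPM from 2 of 10. Both turned lower once each pool's highest cell was left out (log2 ratios -2.08 and -2.54). The labels give these dual gRNA cells days 17 to 20 and the control gRNA cells days 8 to 16, so gRNA and day cannot be told apart.

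Across the series the genes did not all behave alike. Of the 34, 13 stood above all 3 no gRNA pools in each of the 13 gRNA pools. Sall1 did so in 0 of 13, Siglech, a sialic acid-binding lectin, in 7, and Unc93b1 in 9. These counts cross batches, and no share of all genes under the same rule stands beside them. The highest Sall1 level with no gRNA was the 76.1 CPM of batch 3. Within batch 5 Sall1 was higher than with no gRNA by 2-fold or more, with log2 ratios of 1.35 (Sox9 gRNA) and 1.42 (Trps1 gRNA). The share of cells with a read differed little there, at 6 of 21 with Sox9 gRNA, 8 of 30 with Trps1 gRNA and 5 of 23 with no gRNA. Sall1 was read in 38 of 182 gRNA cells (20.9%) and 12 of 60 no gRNA cells (20%), and in 0 of 12 in-slice controls. Cybb was read in 16 gRNA cells (8.79%) and 0 no gRNA cells. Tyrobp was the most widely read, in 143 gRNA cells (78.6%), 20 no gRNA cells (33.3%) and 11 in-slice controls, followed by Aif1 in 139, 11 and 10. Per kilobase of exon the median over the gRNA pools was highest for Tyrobp (858 CPM), Fcer1g (489 CPM) and Lyz2 (429 CPM), and lowest for Cybb (0.333 CPM) and Sall1 (0.782 CPM).

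A second list of 50 microglial genes, which shares no gene with the 34, was higher or lower in the same comparisons of batches 4 and 5 given here. In batch 5, of 36 list genes at the minimum, 35 were higher by 2-fold or more with Sox9 gRNA (24.9% of all genes) and 0 lower, with summed levels of 9230.1 against 305 CPM with no gRNA. With Trps1 gRNA these were 33 and 0 of 34, at 6848 CPM (31.4% of all genes higher). In batch 4, 3 of 43 were higher and 29 lower in Sox9 against control gRNA cells (26.1% and 39.7% of all genes), at 5083 against 11320 CPM. Complement C1qb stood at 1548 CPM with Sox9 gRNA, 1089 CPM with Trps1 gRNA and 20.8 CPM with no gRNA in batch 5, and the lysosomal protease Ctss at 2127, 1614.5 and 18.96 CPM. Genes of border macrophages were low: the 7 of 12 with a row in batch 5 summed to 45.5 CPM with Sox9 gRNA, 21.5 CPM with Trps1 gRNA and 0.0568 CPM with no gRNA. Cell 14 of the Sox9 gRNA pool, the highest in the 34 genes, held 826 CPM of them, and without it that pool stood at 0.866 CPM. Their mannose receptor Mrc1 was read in 0 of 21, 5 of 30 and 1 of 23 of these cells. Of the genes of activated microglia, 9 of 13 were higher and 0 lower with Sox9 gRNA, and 11 of 15 higher and 1 lower with Trps1 gRNA, beside the same shares of all genes. Apoe, which astrocytes also make in abundance, stood at 9455, 11198.5 and 9937 CPM in the same pools, and Cst7, a cystatin of activated microglia, at 72.6, 92.7 and 0 CPM.

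From cell to cell the sum of the 34 genes ran more closely with the other microglial genes than with the astrocyte genes in batch 5. Spearman's rho between the sum and the 50 other microglial genes was 0.95 over 21 Sox9 gRNA cells, 0.92 over 30 Trps1 gRNA cells and 0.66 over 23 no gRNA cells of batch 5 (Pearson's r 0.69, 0.82 and 0.61). With the 22 astrocyte genes it was -0.34, -0.32 and 0.18 (r -0.09, -0.29 and 0.39), and with reads per cell 0.27, 0.15 and 0.11 (r 0.12, 0.20 and 0.03). Over the 7 other gRNA pools of 10 or more cells, rho ran from 0.81 to 0.98 with the other microglial genes and from -0.36 to 0.24 with the astrocyte genes. Pearson's r with the astrocyte genes reached 0.70 in the control gRNA cells of batch 1, above the 0.57 with the other microglial genes there, and 0.65 in the Trps1 gRNA cells of batch 4, whose near-identical pair holds its 2 highest sums. In the 31 no gRNA cells of batch 1 rho was 0.39 and 0.12. Cells of a pool share library preparation, and CPM values of 1 cell share a total, so these are descriptions. Of the members, Tyrobp and Fcer1g ran most closely with the sum of the others over the 51 gRNA cells of batch 5 (rho 0.81 each), and Sall1 and Prkcd least (-0.16 and 0.06). Among 4536 other genes read in 20 or more of these cells, the 8 most like the sum included C1qb (rho 0.90), Ctss (0.89), Ctsd (0.83), C1qa (0.82), C1qc (0.82) and the ferritin pseudogenes Ftl2-ps (0.78) and Ftl1-ps2 (0.78), whose reads may belong to the near-identical ferritin gene.

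**Figure D5:**
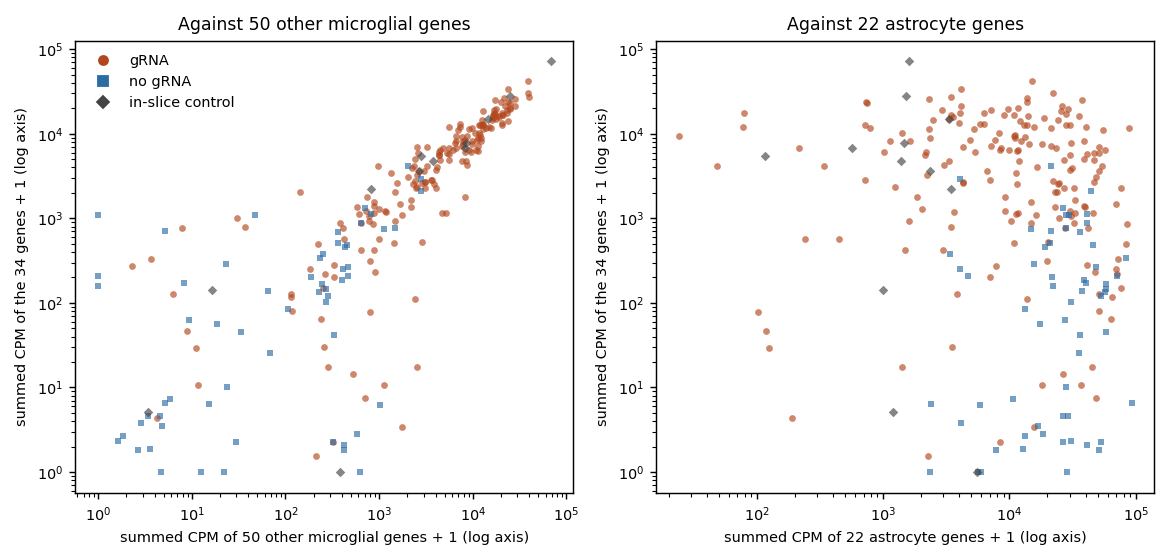
Summed CPM of the 34 genes plus 1 in each library against 50 other microglial genes (left) and 22 astrocyte genes (right), each plus 1, on log axes. Circles hold a gRNA, squares no gRNA, and diamonds are in-slice controls. At the left the sums run together above about 1000 CPM and scatter below it, and at the right 56 gRNA cells and 8 in-slice controls hold more microglial than astrocyte CPM.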

How the data were processed

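Single astrocytes and in-slice controls were read as raw counts per gene, as the authors deposited them, with a table for each batch. Per the submitters' processing notes, the tools were STAR (2.6.0a) and RSEM (1.3.0) and the builds GRCm38 and mm10. Their roles, and the treatment of strand and of multiply mapped reads, are not stated in the sources used. Rows that name no gene stayed out of all totals (75.6% of counts in batch 1, 22.3% in batch 2, under 1% in the others). No column belonged to an unmatched sample (0 columns). The 34 genes and all lists were chosen with earlier results of these data known.

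With no animal in the labels, cells were pooled by gRNA, day and batch, in batch 1 across days, and compared within a batch. The software was Python 3.11.15, pandas 2.3.3, numpy 2.4.6 and scipy 1.17.1. No test was made. CPM was computed from summed counts, with exact Poisson intervals, and shares with exact Clopper-Pearson intervals, both at 95%. A log2 ratio adds 5 CPM to each pool, which draws low genes towards 0 and is no bound against a pool at 0. A gene counted as higher or lower at 2-fold or more if it reached 20 CPM in the higher pool. A pool without a read was set at 3 reads for a bound, which covers counting error only and not the spread between cells. Shares were repeated after thinning cells to 100000 reads. PCR copies are counted, so intervals cover counting error only.

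Up to 8 members each way were eligible for naming in a comparison, by log2 ratio past 1 with a share of cells differing by 20 points or more, together with P2ry12, Tmem119, Cx3cr1, Csf1r, Tyrobp, Lyz2, Ptprc and Spi1. Of other genes, the 8 most like the sum and up to 4 per list were eligible, and 1 gene is not reported here. Members named across the series or in the in-slice controls, and the genes of a count of 2 or fewer, were chosen after their values were seen. Ratios were tested on simulated data. Alternatives were the added CPM, no minimum, the highest cell left out, the mean of the cells' own CPM, another scaling, title series, the 8 restricted genes, each library left out, and 1 library of a near-identical pair left out. Pairs were looked for by Pearson's r of log2(CPM + 1) above 0.9 and compared by chi-square over genes of 10 or more counts in the pair.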

Additional observations from a re-analysis of the deposited data

Results flagged for a closer look

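A library far from the others of its group was looked for in the 8 groups of 4 to 10 libraries. The rule is set to mark about 1 group in 20 by chance where values follow a normal distribution. The sums ran from 275 to 21186 CPM in control gRNA cells of day 7 in batch 2. Those of the batch 3 in-slice controls ran from 4.20 to 71964 CPM. How often chance marks a group of such skewed sums was not tested, so the rate is not given for them. The sum of the 34 genes stood apart in 3 libraries. Control gRNA cell 5 of day 7 in batch 2 held 21186 CPM, and the next of the 8 cells 6703 CPM. No gRNA cell 2 of batch 3 held 1315 CPM, and the next of the 6 cells 376 CPM. In-slice control 3 of batch 3 held 71964 CPM, and the next of the 4 libraries 6733 CPM.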

How the results depend on the processing

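Of 176 values of summed levels and counts under the alternatives, 80 moved, most of them summed levels (57 of 61), which count as moved when outside the counting interval of the reported value. The sign of the summed log2 ratio was kept in 35 of 35 alternatives against no gRNA and in 25 of 26 of the others. Values are given in the order batch 5 Sox9 and Trps1, batch 3 Sox9 and dual and batch 1 control, each against no gRNA, then batch 4 Sox9 and dual, batch 2 dual and batch 1 dual, each against control gRNA, and batch 2 control day 21 against day 7. The mean of the cells' own CPM gave 5.06, 4.48, 4.60, 3.97, 4.27, -1.10, -0.047, 0.69, -0.71 and 0.42. Median-of-ratios scaling gave 4.89, 4.08, 2.76, 1.96, 4.17, -0.81, 0.42, 1.01, -0.84 and 0.14. The 8 restricted genes gave 4.56, 3.73, 3.57, 3.09, 3.55, -1.26, -0.10, 0.41, -2.12 and 0.35. Leaving out the highest cell of each pool gave 7.30 and 6.39 in batch 3, 4.55 in batch 1, -1.21, -0.038, 0.36, -1.54 and 1.08. Title series gave 4.90 (2AG) and 5.16 (AG) for Sox9 gRNA, and 4.16 (21T), 2.93 (21T2), 5.32 (21T3), 4.46 (2AG) and 4.72 (AG) for Trps1 gRNA in batch 5. They gave 4.02 (7S), 4.25 (7S2), 4.0003 (7ST) and 2.43 (7ST2) in batch 3, and -1.54 (21S) and -1.09 (21S2) in batch 4. Cells of 500000 reads or more, an alternative chosen after the values were seen, gave 3.95 and 3.20 in batch 3. Leaving out each batch 1 dual gRNA cell gave -1.84 to -0.090, and each in-slice control 3240 to 38544 CPM in batch 3, 3639 to 5401 in batch 4 and 2663 to 6647 in batch 5.

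With 1 library of the near-identical no gRNA pair of batch 5 left out, chosen after the values were seen, the log2 ratios were 4.97 and 4.54. Counts of genes past 2-fold moved by over 1.5 times in 12 of 104 cases. In batch 4 the higher count for Sox9 gRNA was 2 without each gene's highest cell and 2 with median-of-ratios scaling (also chosen after the values were seen for counts). For dual gRNA the higher counts were 10 and 10, and the lower count 2 with that scaling. The lower counts were 4 without the highest cells in batch 2 (day 21 against day 7), 1 with that scaling for Sox9 gRNA in batch 3, and 0 with 20 CPM added and 2 with that scaling for dual gRNA there. In batch 1 dual gRNA the higher counts were 1 with 20 CPM added, 0 without the highest cells and 1 with that scaling. Of the values of named members, 543 kept their call, 23 moved and 2 reversed, P2ry12 (-2.08) and Cd53 (-2.54) in batch 1 dual gRNA without the highest cells. The cause was not tested. No paired analysis was possible because the labels pair no cells between groups and no result comes from a test. In batch 3 the shallow no gRNA cells limit what could be read there.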
